A study of Mus musculus with 4 samples.

Results

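Neurons that carried transcripts of Neurod6 were examined in the single-cell RNA libraries of sorted mouse cochlear cells at embryonic day 14.5 (E14.5). Cells were kept when they held at least 1000 genes and under 10% mitochondrial transcripts. A kept cell was counted when it held at least 2 unique molecular identifiers (UMIs, each standing for 1 captured mRNA molecule) of Neurod6 and at least 1 of Stmn2, a tubulin-binding gene of growing neurons. The rule found 88 of 1569 kept cells in replicate 1 (5.61%, exact 95% interval 4.52% to 6.86%) and 227 of 3049 in replicate 2 (7.45%, 6.54% to 8.43%). That is 315 of 4618 kept cells at E14.5 and of 5950 kept cells in all 4 libraries of the series. The intervals cover counting error only.

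All libraries came from mice of the genotype Sox2-GFP/WT, in which a green fluorescent protein reports on the progenitor gene Sox2. Cochleae were cut away from the vestibular part of the inner ear, digested and sorted for GFP, so every group described here passed the same sort. E12.5 and E14.5 had 2 libraries each. Tests took the library as a block, so p-values draw on how far the difference between cell classes varied between these libraries. For each gene the estimate of this variation also borrowed from the other genes tested. The labels name no animal behind a library, so this variation may be technical. The comparison cells were the 501 and 644 other neurons of the E14.5 libraries, which held at least 3 UMIs of Stmn2 and fewer than 2 of Neurod6. Neurod6-positive cells had a median of 24643 and 20478 UMIs, and the other neurons 21228 and 23464.5.

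Neurod6 encodes a basic helix-loop-helix (bHLH) transcription factor of the NeuroD family. Such factors bind DNA as dimers at E-boxes and drive neuronal differentiation, and Neurod6 is best known from the excitatory projection neurons of the forebrain's cortex. In the developing cortex, radial glia give rise to Eomes-positive intermediate progenitors, and these to neurons that carry Neurod2, Neurod6 and Tbr1. Deep layer neurons go on to use Tbr1, Fezf2 and Bcl11b, and upper layer neurons Cux genes. Cells of the cortex are not part of a cochlea, and the labels give the cochlear duct as the tissue of all 4 libraries and auditory cells as their type.

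The cells that passed the rule were first checked against cortical markers. Tbr1, a T-box factor of early cortical neurons, had a UMI in 54 of the 88 Neurod6-positive cells of replicate 1 (61.4%) and in 133 of the 227 of replicate 2 (58.6%). Fezf2, a zinc finger factor of deep layer neurons, was found in 55 (62.5%) and 128 (56.4%). In cells without any Stmn2 UMI, whose median was 17125 and 16218 UMIs, Tbr1 was found in 1.78% and 1.74% and Fezf2 in 5.57% and 3.90%. The shares in Neurod6-positive cells were thus far above those of the cells without Stmn2. Yet 31 and 91 of the cells that passed the rule had neither gene. They are therefore called Neurod6-positive neurons here and not cortical neurons.

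The cells without Tbr1 and Fezf2 carried other genes. Isl1, a LIM homeodomain factor of sensory and motor neurons, had a UMI in 26 and 29 Neurod6-positive cells, and Gata3, a zinc finger factor of the inner ear and its neurons, in 23 and 21. Tbr1 or Fezf2 without Isl1 and Gata3 was found in 53 and 131 cells (60.2% and 57.7%). Isl1 or Gata3 without Tbr1 and Fezf2 was found in 22 and 25 (25.0% and 11.0%). A further 9 and 66 cells had none of these 4 genes (10.2% and 29.1%), and 4 and 5 cells had genes of both pairs. The split by these 4 genes was made after the values had been seen, so its groups are described and not tested.

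**Figure D1:**
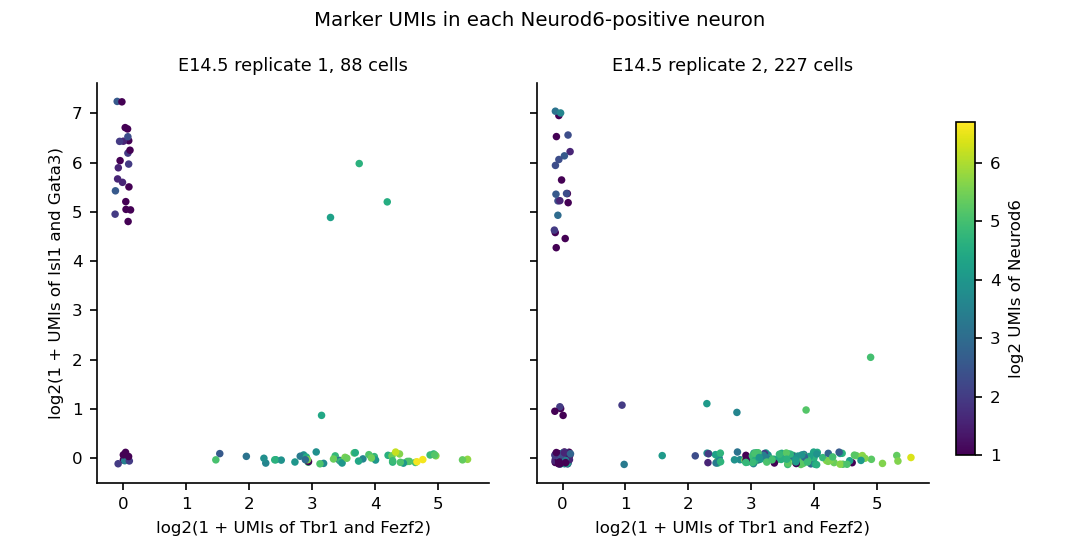
Each point is 1 Neurod6-positive cell; the horizontal axis gives log2(1 + UMIs of Tbr1 and Fezf2), the vertical axis log2(1 + UMIs of Isl1 and Gata3), and the colour log2 UMIs of Neurod6. Points are spread slightly so that equal counts can be seen. In both libraries most cells lie along 1 axis or the other, with 4 and 5 cells off both. A further 9 and 66 cells with none of the 4 genes lie where the axes meet.

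Co-occurrence within cells was sharp. In replicate 1, 52 cells had both Tbr1 and Fezf2, and 2 and 3 cells had either alone. In replicate 2, 125 cells had both, and 8 and 3 had either alone. Isl1 and Gata3 likewise met in 23 and 20 cells, with 3 and 9 cells holding Isl1 alone and 0 and 1 holding Gata3 alone. Across the pairs, Tbr1 and Isl1 met in 4 and 3 cells. The cells with both pairs had a median of 37273.5 and 45312 UMIs, above the medians of all other groups; doublets had not been removed, and their part in these 4 and 5 cells was not tested.

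The cells were chosen by their UMIs of Neurod6 and Stmn2, so the levels of these genes are a description. Neurod6 was far higher in the cells with Tbr1 or Fezf2. Their median was 28 and 24 Neurod6 UMIs per cell, with a highest value of 98 and 83. Cells with Isl1 or Gata3 had a median of 2.5 and 3 UMIs and those with none of the 4 genes 3 and 4. In counts per 1000000 UMIs (CPM) of each sum of cells, Neurod6 stood at 1029 and 1056 CPM in the first group, 110 and 142 in the second and 156 and 277 in the last. The other neurons, limited by the rule to at most 1 UMI per cell, had 1.90 and 2.65 CPM, and cells without Stmn2 had 2.92 and 3.72. Stmn2 stood at 2985 and 2577 CPM in the Neurod6-positive cells and at 2003 and 2115 in the other neurons.

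**Figure D2:**
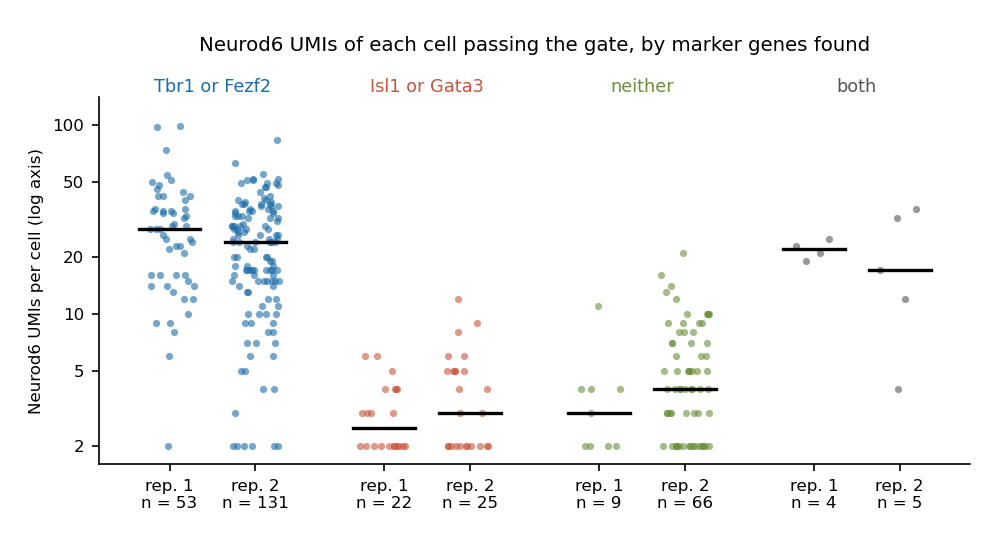
Each point is 1 cell that passed the rule, with its Neurod6 UMIs on a log axis, by library and by which of the 4 marker genes had a UMI; bars mark medians. The cells with Tbr1 or Fezf2 have medians of 28 and 24 UMIs, while those with Isl1 or Gata3 lie close to the limit of 2.

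The rule's limit of 2 UMIs ran through the groups without Tbr1 and Fezf2. Exactly 2 UMIs were found in 16 and 34 of the cells, exactly 3 in 5 and 11, and 27 and 57 cells lay just outside with 1 Neurod6 UMI and at least 1 of Stmn2. Among the 21 and 45 cells with 2 or 3 UMIs, 0 and 6 had Tbr1 and 15 and 13 had Isl1. Among the cells with 4 or more, 54 of 67 and 127 of 182 had Tbr1. Of the cells just outside, 0 of 27, which allows a share of cells with a UMI of up to 11.1%, and 3 of 57 had a UMI of Tbr1, whereas 19 and 23 had Isl1. The cells near the limit were thus mostly without Tbr1 on either side of it.

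The cells with Tbr1 or Fezf2 had the profile of the dorsal forebrain. Emx1, a homeobox gene of the dorsal forebrain, had a UMI in 47 of 53 cells and 120 of 131, and stood at 129 and 257 CPM. In the cells with Isl1 or Gata3 it had 0 and 1.39 CPM, and in the cells with none of the 4 genes 0 in both libraries. Neurod2, the close relative of Neurod6, stood at 341 and 345 CPM, with a UMI in 52 of 53 and 128 of 131 cells. Nfix, a nuclear factor I gene, was at 1581 and 1529 CPM against 3.29 and 52.8 in the Isl1 or Gata3 cells and 73.2 and 153 in the rest. The guidance receptor gene Epha4 was at 501 and 420 CPM, against at most 18.1 in the other 2 groups. Mpped1, Gabra2, Fgfr1, Cntnap2 and Dab1 also led this group, each at least 9.19 times its highest level in the other 2 groups, or their floor of 3 counts where that was higher.

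The cells with Isl1 or Gata3 carried genes of inner ear ganglion neurons. Isl1, by which they were split, stood at 2115 and 1520 CPM. Shox2, a homeobox gene, stood at 605 and 489 CPM. Pou4f1, a POU factor of sensory neurons, had a UMI in 21 of 22 and 20 of 25 cells. Ppp1r17 at 821 and 823 CPM, Irx1 at 574 and 373, Rgs4 at 531 and 359 and Sncg at 719 and 481 led the group as well. Eomes and Calb2, which the split did not use, had 0 UMIs in these 22 and 25 cells. Neurod1, a bHLH factor that cochlear neurons need, stood at 1487 and 1437 CPM here and at 908 and 735 CPM in the cells with Tbr1 or Fezf2.

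The cells with none of the 4 genes differed between the libraries. In replicate 2, 50 of the 66 held Hoxb3, a gene of the hindbrain, and 49 held Zfp503. Hoxb2 was at 358 CPM, Hoxa2 at 107 and Barhl1 at 110, and Neurod2 had a UMI in 56 of the 66 cells. In replicate 1 the group had 9 cells, of which 1 held Hoxb3 and 4 held Gng13, a G protein gene of olfactory neurons at 892 CPM in their sum. This group is thus mainly of replicate 2, and results on Hoxb3 and its neighbours rest on that library. Zic2, Barhl1, Lamp5, Uncx and Meis1 were highest in this group in both libraries.

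**Figure D3:**
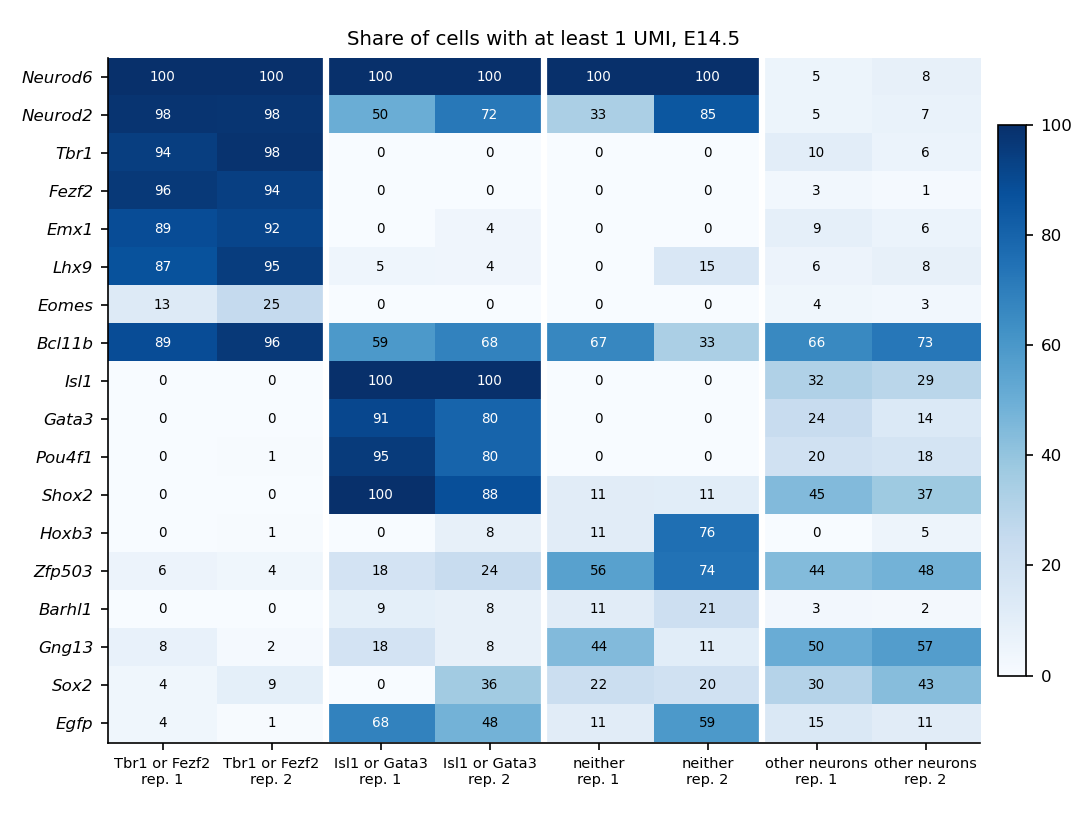
Share of cells with at least 1 UMI of each gene (rows), in % and printed in each box, for the 3 groups of Neurod6-positive cells and for the other neurons in each E14.5 library (columns). Tbr1, Fezf2 and Emx1 mark the first group, Isl1, Gata3 and Pou4f1 the second, and Hoxb3 and Zfp503 the last in replicate 2.

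The reporter transcript differed among the 3 groups. Egfp had a UMI in 2 of 53 (3.77%) and 1 of 131 (0.763%) cells with Tbr1 or Fezf2. The transcript was found in 15 of 22 (68.2%) and 12 of 25 (48.0%) cells with Isl1 or Gata3, and in 1 of 9 (11.1%) and 39 of 66 (59.1%) of the rest. With every cell thinned to 5000 UMIs, the shares were 3.77% and 0, 13.6% and 32.0%, and 0 and 25.8%. Among all kept cells at E14.5, 33.8% and 39.1% had an Egfp UMI, and among cells without Stmn2 43.8% and 51.3%. Cells with Tbr1 or Fezf2 thus had a smaller share with the reporter transcript than all kept cells, although they had passed the same sort. In replicate 1 the 9 remaining cells were low as well. A low share was not particular to these groups. The other neurons, whose shares are given below, also lay under all kept cells, but above the cells with Tbr1 or Fezf2.

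Promoter sequences of Neurod6, which chose the cells, and of its relative Neurod2 are shown side by side, since the members of the NeuroD family bind E-boxes. They are the 250 bases before the start of transcription in RefSeq's annotation, printed 5′ to 3′, with the E-box CAGATG (read on both strands, so also CATCTG) in capitals.
Neurod6, GRCm38.p6 chr6:55681264-55681513, strand minus: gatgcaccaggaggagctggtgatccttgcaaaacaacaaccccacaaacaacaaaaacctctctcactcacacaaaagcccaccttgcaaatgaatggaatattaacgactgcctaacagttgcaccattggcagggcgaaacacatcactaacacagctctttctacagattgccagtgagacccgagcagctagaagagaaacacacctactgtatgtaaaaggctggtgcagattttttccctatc
Neurod2, GRCm38.p6 chr11:98329646-98329895, strand minus: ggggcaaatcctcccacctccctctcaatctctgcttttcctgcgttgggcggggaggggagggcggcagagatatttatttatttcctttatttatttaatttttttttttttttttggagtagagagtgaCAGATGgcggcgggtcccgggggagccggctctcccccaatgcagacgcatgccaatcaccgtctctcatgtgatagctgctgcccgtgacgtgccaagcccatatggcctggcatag
The stretch of Neurod6 held no such letters and that of Neurod2 held 1 copy. Of 32851 promoters of this length in the table, 14.4% held the motif. Of the 15 promoters listed for 10 of the genes ranked highest below, 2 held it, those of Neurod2 and Nfix, a share of 13.3%. This is a description of letters and draws on no binding data.

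Neurod6-positive neurons were then compared with the other neurons of the same library. The UMIs of each class were summed per library, giving 2519626 and 5316960 UMIs for the Neurod6-positive cells and 14231614 and 19615220 for the others. Sums were tested with edgeR's quasi-likelihood test with the library as a block and Benjamini-Hochberg (BH) adjustment over 13917 genes; log2 changes have their standard error (SE), and a gene was called at an adjusted p under 0.05. The calls took in 2286 genes that were higher (16.4%) and 2524 that were lower (18.1%) in Neurod6-positive cells, so about 34.6% of all genes differed and single calls must be read against that. Without scaling beyond the library total, the split was 1541 higher and 3314 lower, and the median log2 change over all genes moved by -0.17. The sums of the 2 classes did not overlap for 74.9% of genes. Because the rule mixes the 3 groups above, each value below is a mean over them.

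Transcription factors of the pallium, the dorsal part of the forebrain, were mostly higher. Of 15 tested, 11 were higher and 1, Emx2, was lower, with a median log2 change of 2.62 against -0.04 over all genes. Bhlhe22 (chr3:18054174-18057517), a bHLH factor of cortical projection neurons, stood at 700 and 551 CPM in Neurod6-positive neurons and at 28.7 and 18.9 CPM in the others, a log2 change of 4.91 ± 0.11 (edgeR adjusted p = 1.09e-05). Neurod2 (chr11:98325415-98329648) stood at 239 and 289 CPM against 3.30 and 6.68 CPM, 5.91 ± 0.19 (edgeR adjusted p = 2.47e-05). Both libraries of the first class lay above both of the second for each gene. Nfix (chr8:84699876-84800344) was at 1056 and 943 CPM against 87.0 and 55.7, and Zbtb18, a repressor needed by cortical neurons, at 351 and 339 CPM against 26.1 and 31.2. Emx1 (chr6:85187438-85204462) was at 87.7 and 151 CPM against 12.9 and 5.0 (4.01 ± 0.47, edgeR adjusted p = 0.00134), with a log2 change of 2.77 in replicate 1 alone and 4.92 in replicate 2 alone. Lhx2, a LIM factor of forebrain and olfactory cells alike, was at 768 and 888 CPM against 799 and 926 and did not pass (edgeR adjusted p = 0.236).

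**Figure D4:**
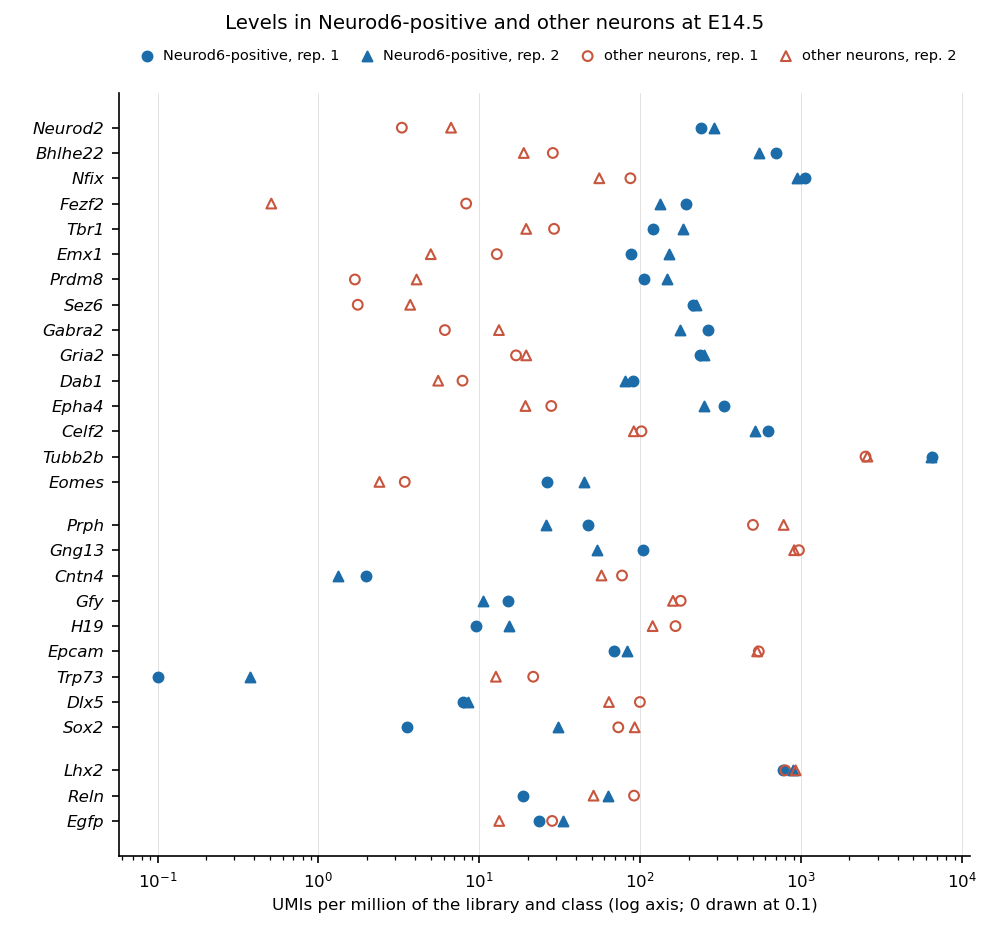
Counts per 1000000 UMIs (CPM) in each library on a log axis, for Neurod6-positive neurons (filled) and other neurons (open), circles for replicate 1 and triangles for replicate 2; the upper block holds genes called higher, the middle block genes called lower and the lower block genes that did not pass. The sums of the 2 classes do not overlap for genes of the upper and middle blocks, while those of Lhx2, Reln and Egfp do; a count of 0 is drawn at 0.1.

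Of 11 bHLH genes tested, with Neurod6 left out, 6 were higher and 2 lower. Neurod2 and Bhlhe22, already counted with the pallial factors, were among the 6. Neurod1 stood at 1034 and 677 CPM against 185 and 181, and Tcf4, the common dimer partner of such factors, at 823 and 705 against 176 and 179. Neurog2, which starts neurogenesis in the dorsal forebrain, was also higher, at 30.2 and 46.8 CPM against 4.71 and 13.3 (2.34 ± 0.24, edgeR adjusted p = 0.000725). Atoh1, a proneural gene of hair cells and of the hindbrain, was called higher from replicate 2 alone, at 0 and 14.3 CPM against 0 and 3.67. Neurog1, a proneural gene of sensory lineages, was among the 2 that were lower, at 29.0 and 23.5 CPM against 56.1 and 74.3. Of all genes, 16.4% were higher and 18.1% lower. The 2 lower genes of 11 thus lie near the share of all genes, and the 6 higher genes lie above it.

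Of 14 genes of deep layer and subplate neurons, 8 were higher and 4 lower. Fezf2 (chr14:12342094-12348189) stood at 193 and 132 CPM against 8.29 and 0.510, a log2 change of 5.81 ± 0.61 (edgeR adjusted p = 0.000859). Within replicate 1 alone the log2 change was 4.54 and within replicate 2 alone 8.02, so the size of this difference depends on the library. Tbr1 was at 121 and 184 CPM against 29.2 and 19.6 (2.83 ± 0.27, edgeR adjusted p = 0.00058), and Zfpm2, a cofactor of GATA proteins, at 60.3 and 40.1 against 5.41 and 2.35. Foxp1 was lower, at 80.2 and 52.7 CPM against 162 and 136; within the Neurod6-positive cells it stood at 30.2 and 25.7 CPM in those with Tbr1 or Fezf2 and at 156 and 136 in those with Isl1 or Gata3. Bcl11b, the corticospinal factor CTIP2, was higher by a small size, with 262 and 282 CPM against 212 and 258 (0.39 ± 0.09, edgeR adjusted p = 0.0172).

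Genes of upper layer and callosal neurons showed no such shift. Of 12 tested, 1 was higher, Lmo4, and 1 lower, Cux1. Cux2 stood at 4.76 and 13.3 CPM against 17.6 and 21.7 and did not pass (edgeR adjusted p = 0.0504). The call on Cux1 was lost without the replicate block (adjusted p = 0.0854), with DESeq2 (0.117) and on thinning (0.163). Cux2 was called lower in 4 of the alternatives, with adjusted p from 0.0207 to 0.0392.

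Intermediate progenitor genes were partly shared. Of 12, 6 were higher and 1, Insm1, lower. Eomes, the T-box factor that defines these progenitors, stood at 26.2 and 44.6 CPM against 3.44 and 2.40 (3.79 ± 0.33, edgeR adjusted p = 0.000406). Its UMIs came from 7 and 34 cells, 7 and 33 of which also held Tbr1. Sstr2, a somatostatin receptor gene, was at 59.9 and 102 CPM against 4.78 and 6.32, and Dll1, a Notch ligand, at 34.5 and 46.1 against 5.34 and 5.05. Eomes was thus found in a minority of the cells, whereas Sstr2 was found in 55 of 88 and 136 of 227 and Dll1 in 34 and 113.

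Radial glia genes went the other way or did not pass: of 12, 0 were higher and 5 lower. Notch1 stood at 8.34 and 8.09 CPM against 22.8 and 29.6. Hes1, a Notch target, was at 3.18 and 20.9 CPM against 88.4 and 83.9 (-2.62 ± 0.46, edgeR adjusted p = 0.00638), and was -4.80 in replicate 1 alone and -2.01 in replicate 2 alone. Sox2 stood at 3.57 and 31.0 CPM against 73.1 and 92.5 (-2.18 ± 0.46, edgeR adjusted p = 0.0129), with -4.36 in replicate 1 alone and -1.58 in replicate 2 alone. The call on Sox2 was lost without the replicate block (adjusted p = 0.0708) and with DESeq2 (adjusted p = 0.0864).

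Cajal-Retzius cells, the early Reln-secreting neurons of the cortical surface, also use Tbr1. Of 9 genes of these cells, 0 were higher and 5 lower. Trp73, the p53 relative that marks them, had 0 UMIs in replicate 1, which allows up to 1.19 CPM, and 0.376 CPM in replicate 2, against 21.6 and 12.7 CPM in the other neurons. In replicate 1 it was at least 18.2-fold lower. Reln itself did not pass, at 18.7 and 62.8 CPM against 91.6 and 51.3 (edgeR adjusted p = 0.395). A Reln UMI was found in 17 of 54 and 86 of 133 cells with Tbr1, against 3 of 34 and 29 of 94 Neurod6-positive cells without Tbr1 and 8.06% and 10.6% of cells without Stmn2. The counts for this list differed with the compared class, which was not tested. Against the Isl1 neurons 5 of 9 genes were higher and 0 lower, where 6.75% and 7.18% of all genes were. Against the Gng13 neurons 4 were higher and 3 lower, where 17.8% and 21.6% of all genes were. Outside the Neurod6 rule, 42 and 37 cells held at least 2 UMIs of Tbr1 and 1 of Stmn2, and 40 and 31 of them held Trp73.

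Genes of inhibitory neurons split by member. Of 9 tested, 2 were higher, Slc32a1 and Gad1, and 4 lower, among them Dlx5 at 7.94 and 8.46 CPM against 99.6 and 64.0. Slc32a1, the vesicular GABA transporter gene, was at 2.38 and 10.9 CPM against 0.492 and 1.38. In the cells with none of the 4 marker genes Slc32a1 stood at 22.9 and 43.1 CPM, while the cells with Tbr1 or Fezf2 had 0.643 and 0.329 CPM and those with Isl1 or Gata3 had 0. Nkx2-1 had 0 UMIs in the Neurod6-positive cells of both libraries, and Dlx1, Dlx2 and Sp9 had 0 in replicate 1 and 0.376, 0.752 and 2.82 CPM in replicate 2. The call on Gad1 was lost without the replicate block (adjusted p = 0.0760) and with DESeq2 (adjusted p = 0.0548).

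Genes of glutamate release and its receptors were higher as a group: 10 of 12 tested rose and 0 fell, with a median log2 change of 2.70. Gria2 (chr3:80681450-80802835), an AMPA receptor subunit, stood at 237 and 251 CPM against 16.9 and 19.6 (3.91 ± 0.11, edgeR adjusted p = 2.24e-05). Grin2b, an NMDA receptor subunit, stood at 69.1 and 51.9 CPM against 3.72 and 3.11, and Gria1 at 26.6 and 21.8 against 0.773 and 1.02. These subunits were highest in the cells with Tbr1 or Fezf2, where Gria2 had 349 and 380 CPM against 18.1 and 13.9 in the cells with Isl1 or Gata3. Slc17a6, the vesicular glutamate transporter of many neuron types, did not pass at 38.5 and 60.2 CPM against 42.2 and 38.1 (edgeR adjusted p = 0.119). Gabra2 (chr5:70957597-71095849), a subunit of the GABA-A receptor outside this list, was among the largest increases at 266 and 176 CPM against 6.11 and 13.3.

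Axon guidance genes were higher more often than genes at large, with 15 of 28 higher and 3 lower. Of all genes, 16.4% were higher and 18.1% lower. Epha4 stood at 333 and 251 CPM against 28 and 19.4 (3.80 ± 0.11, edgeR adjusted p = 2.24e-05), Plxna2 at 111 and 75.0 against 8.15 and 10.4, and Dcc, the netrin receptor gene, at 22.2 and 29.9 against 3.02 and 4.49. All 3 were highest in the cells with Tbr1 or Fezf2. Epha5 had another source: it was at 367 and 196 CPM against 124 and 81.0 in the whole class, but at 1229 and 818 CPM in the cells with Isl1 or Gata3 and 81.6 and 103 in those with Tbr1 or Fezf2. Efna5, Sema3a and Robo2 were the 3 lower genes.

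Genes of migration and the cytoskeleton were higher almost throughout, with 18 of 20 higher and 1, Vldlr, lower; Stmn2, by which the cells were chosen, was left out. Tubb2b, a beta tubulin of young neurons, stood at 6472 and 6393 CPM against 2517 and 2585. Dab1 (chr4:103619359-104744844), the adaptor of the reelin receptors, was at 90.5 and 80.1 CPM against 7.87 and 5.56 (3.86 ± 0.16, edgeR adjusted p = 3.32e-05). Rnd2, a small GTPase of migrating cortical neurons, was at 166 and 273 CPM against 33.6 and 48.8. Sez6 (chr11:77930800-77979048), a seizure-related membrane protein gene, had the largest increase of the ranked genes on the log2 scale, 6.47 ± 0.24, at 214 and 221 CPM against 1.76 and 3.72 (edgeR adjusted p = 2.93e-05). Prdm8, a PR-domain factor, followed the same pattern with 105 and 147 CPM against 1.69 and 4.08.

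RNA-binding and synaptic genes were also mostly higher. Of 17 neuronal RNA-binding genes, 12 were higher and 2, Mbnl2 and Ptbp1, lower. Celf2 stood at 627 and 515 CPM against 102 and 91.4, and Nova2, a neuronal splicing factor, at 66.3 and 69.6 against 13.3 and 12.8. Of 17 synaptic vesicle and adhesion genes, 13 were higher and 0 lower. Rab3a was at 509 and 462 CPM against 238 and 254, and Homer1, a scaffold gene of excitatory synapses, at 35.7 and 34.6 against 14.4 and 14.2. Syn2 was higher in the whole class, at 105 and 61.9 CPM against 34.9 and 28.2, but stood at 378 and 371 CPM in the cells with Isl1 or Gata3 and at 17.4 and 15.1 in those with Tbr1 or Fezf2.

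Neurofilament and peripheral cytoskeleton genes divided, with 2 of 7 higher and 5 lower. Prph (chr15:99055174-99058978), the intermediate filament of peripheral neurons, stood at 47.6 and 26.1 CPM against 503 and 780 (-4.00 ± 0.32, edgeR adjusted p = 0.000318). Ina, the neurofilament of early central neurons, was at 657 and 839 CPM against 445 and 384. Of 8 neurotrophin receptor genes, 1 was higher and 4 lower. Ntrk3 was the higher gene, at 177 and 90.8 CPM against 32.0 and 21.1; Gfra2, Ngfr, Gfra3 and Gfra1 were lower, of which Gfra3 lost its call with DESeq2 (adjusted p = 0.0786) and Ngfr on thinning (adjusted p = 0.158). Of 14 otic ganglion markers, 3 were higher (Ntrk3, Shox2 and Isl1) and 5 lower. Gata3 was among the 5 lower, at 107 and 23.3 CPM against 152 and 66.0, while Isl1 stood at 537 and 207 CPM against 215 and 173. The call on Shox2 was lost without the replicate block (adjusted p = 0.151), on thinning (0.133) and among cells with at least 4 UMIs of Neurod6 (0.302).

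Patterning genes of the hindbrain and midbrain had 4 of 10 tested genes higher and 2 lower. Lhx9, a LIM factor, stood at 135 and 162 CPM against 9.56 and 16.2 (3.72 ± 0.16, edgeR adjusted p = 3.32e-05), and was highest in the cells with Tbr1 or Fezf2, at 194 and 265 CPM. Hoxb3 was at 1.98 and 28.2 CPM against 0.0703 and 4.54 and Barhl1 at 8.34 and 29.2 against 2.46 and 7.49. Both calls were lost without the replicate block (adjusted p = 0.153 and 0.0654), and replicate 2 was the higher library in both classes. Otx2, a forebrain and midbrain factor, was lower, at 8.73 and 5.64 CPM against 42.0 and 64.1.

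**Figure D5:**
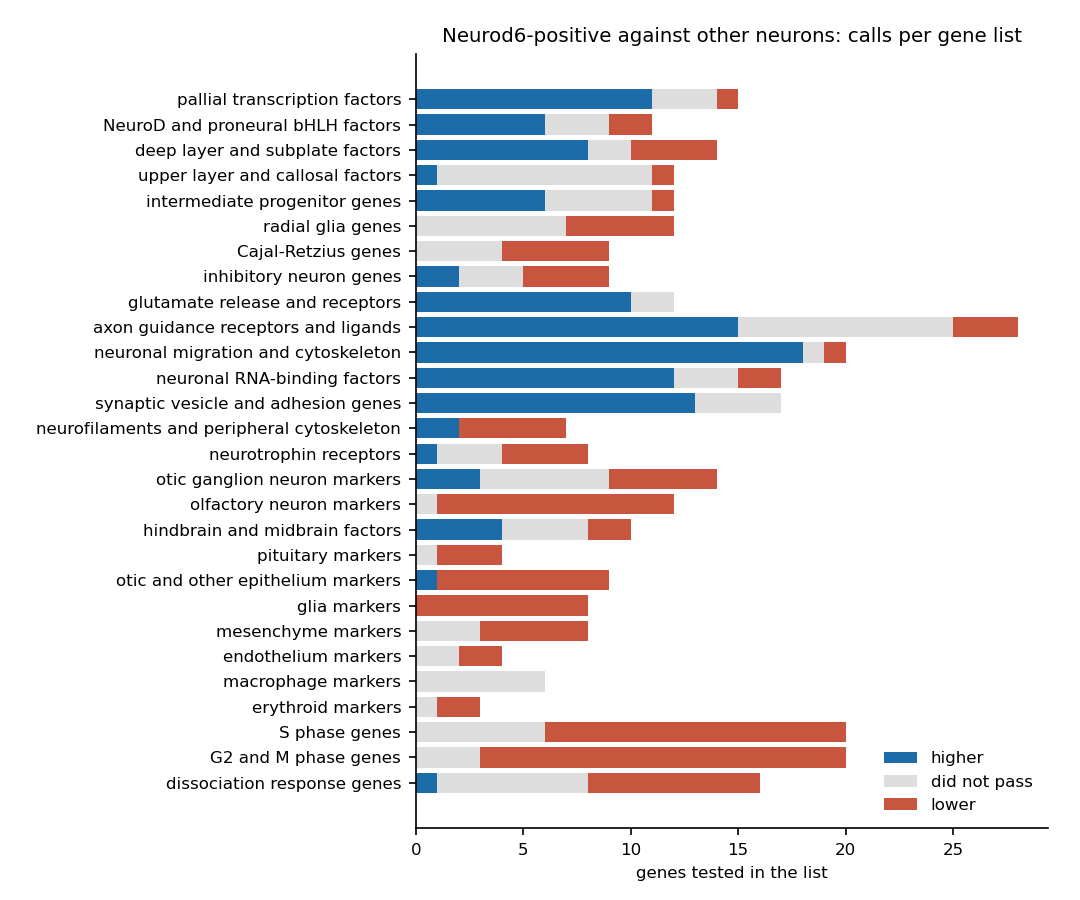
Number of genes of each list that were higher, lower or did not pass (edgeR's quasi-likelihood test, BH adjusted p under 0.05) in Neurod6-positive neurons against the other neurons; over all genes 16.4% were higher and 18.1% lower. Migration, synaptic and glutamate genes are mostly higher, and olfactory, epithelial, glial and cell cycle genes mostly lower.

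The genes that were lower were led by those of olfactory-type neurons, which made up 223 and 333 of the other neurons. Of 12 olfactory markers, 0 were higher and 11 lower. Gng13 (chr17:25717171-25719406) stood at 104 and 54.0 CPM against 971 and 907 (-3.48 ± 0.19, edgeR adjusted p = 8.77e-05), and Gfy, an olfactory Golgi protein gene, at 15.1 and 10.5 against 179 and 160. Bpifa1, a secreted airway protein gene, had 0.397 CPM and 0 UMIs against 108 and 27.2 CPM. Cntn4, Fam92b, Rtp2, Bfsp2, Rgcc and H19 were further ranked decreases, each at 15.2 CPM or less in Neurod6-positive cells and at 38.4 CPM or more in the others. Pomc and Fxyd7 rested on replicate 2: Pomc was at 9.53 and 9.22 CPM against 17.1 and 264, and Fxyd7 at 11.9 and 3.57 against 22.7 and 204. In replicate 1 alone their log2 changes were -0.84 and -0.93, and both calls were lost without the replicate block (adjusted p = 0.0860 and 0.0645) and with DESeq2 (adjusted p = 0.245 and 0.219).

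Markers of non-neuronal cells were lower as well. Of 9 epithelial genes 8 were lower and 1, Pax2, higher, and all 8 glia genes were lower. The epithelial list summed to 113 and 199 CPM in Neurod6-positive cells and to 1117 and 1141 CPM in the others, and the glia list to 82.9 and 242 against 644 and 683. The mesenchyme list, with 5 of 8 genes lower, summed to 22.2 and 15.8 CPM against 137 and 64.5. Of 4 pituitary genes tested 3 were lower, with the list at 21.0 and 35.0 CPM against 78.3 and 505, and of 4 endothelial genes 2 were lower, at 2.78 and 2.26 CPM against 10.3 and 9.64. Erythroid genes summed to 9.53 and 13.4 CPM in Neurod6-positive cells and to 1364 and 12 CPM in the others, so the 2 erythroid genes called lower, Hbb-bt and Hba-a1, rest on replicate 1, with Hba-a2 and Alas2 at 0 in both Neurod6-positive sums. None of the 6 macrophage genes passed. All were at 0 in the Neurod6-positive cells of replicate 1, and the list summed to 44.8 CPM in replicate 2. There C1qa and C1qb had 58 and 33 UMIs in the cells with Isl1 or Gata3. The cells with Tbr1 or Fezf2 had 1 UMI of each, and those with none of the 4 marker genes had 0. The part of non-neuronal cells in the genes called lower was not tested.

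Dividing-cell genes were lower too. Of 20 S phase genes 14 were lower and 0 higher, and of 20 genes of G2 and M phase 17 were lower and 0 higher. The S phase list summed to 321 and 496 CPM against 792 and 724, and the G2 and M phase list to 356 and 578 against 1164 and 1195. Of 16 genes that respond to tissue dissociation, 8 were lower and 1, Hspa8, higher. Jun stood at 275 and 209 CPM against 593 and 552, and Atf3 at 3.57 and 3.01 against 28.7 and 48.5. Their part in the other differences was not tested.

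The Egfp transcript did not pass over the whole class. It stood at 23.4 and 33.1 CPM in Neurod6-positive neurons and at 28.4 and 13.3 CPM in the others, a log2 change of 0.76 ± 0.35 (edgeR adjusted p = 0.139). The direction differed between the libraries, with -0.28 in replicate 1 and 1.31 in replicate 2. The sums of the 2 classes overlap. Shares of cells with a UMI were 21.6% and 23.3% against 14.8% and 11.0%, and with cells thinned to 5000 UMIs 9.09% and 11.0% against 8.03% and 5.62%.

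Against the Gng13 neurons alone, 2397 of 13433 genes (17.8%) were higher and 2902 (21.6%) lower in Neurod6-positive cells, in a fit over 4 neuron classes with the library as a block; the sums did not overlap for 77.4% of genes. Bhlhe22, Neurod2 and Lhx9 had 0 UMIs in the Gng13 neurons of replicate 1 and 3, 5 and 4 UMIs in replicate 2, so their fitted changes rest on few counts. Ntrk3 stood at 177 and 90.8 CPM against 0.717 and 0.580 (7.66 ± 0.52, edgeR adjusted p = 0.000218). With 5 and 6 UMIs in the Gng13 neurons, its fitted change rests on few counts as well. Zic1, a zinc finger factor, was at 28.2 and 212 CPM against 0 and 1.16, and within the cells with Tbr1 or Fezf2 it was at 15.4 and 248 CPM, so it differed between the libraries within the group. All 12 genes tested of glutamate release and receptors were higher. Mt2, a metallothionein gene, and Pcolce2 were among the largest decreases, at 8.73 and 8.46 CPM against 157 and 150 and at 10.7 and 10.2 against 167 and 188.

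Against the Isl1 neurons, 116 cells in each library, fewer genes were called: 906 of 13432 (6.75%) were higher and 965 (7.18%) lower, and the sums did not overlap for 58.1% of genes. The Isl1 neurons had a median of 20219.5 and 39021.5 UMIs, so the depth of this class differed between the libraries. Fezf2 had 0 UMIs in them, and was at least 210-fold and 212-fold higher in the Neurod6-positive sums, taking 3 counts per library as the floor. Calb2, the calretinin gene, stood at 133 and 309 CPM against 0.922 and 0.625, and Nfix at 1056 and 943 against 10.8 and 11.3 (6.56 ± 0.19, edgeR adjusted p = 8.51e-05). Of 15 pallial factors 13 were higher and 0 lower, while 7 of 8 glia genes were lower. Several lists that were mostly higher against all other neurons moved less here: 9 of 20 migration and cytoskeleton genes, 5 of 12 glutamate genes, 5 of 17 RNA-binding genes and 2 of 17 synaptic genes were higher. Of the dividing-cell genes, 2 of 20 S phase genes and 1 of 20 G2 and M phase genes were lower. Whether these lists differ between the comparisons was not tested. Among the decreases, Tac1, the substance P precursor gene, stood at 0.397 and 1.5 CPM against 146 and 56.5, Pvalb at 25.0 and 15.2 against 772 and 578, and Runx1 at 1.98 and 4.70 against 59.3 and 89.0. Sncg stood at 264 and 70.7 CPM against 2246 and 3450, and within the Neurod6-positive cells it stood at 719 and 481 CPM in those with Isl1 or Gata3.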

How the data were processed

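Single-cell RNA libraries were made with the 10x Genomics 3 prime kit, which counts transcripts by UMI. The authors deposited 1 matrix of raw UMI counts per library; reads were aligned to mm10 and counted with Cell Ranger 3.0.0, per the submitters' processing notes. The annotation release is not given in the sources used here; positions are from GENCODE's GRCm38 annotation. The E14.5 libraries held 1705 and 3298 barcodes with 39903952 and 74034411 UMIs, and 2 libraries shared at most 1 barcode.

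Counts were summed per library and class of neuron. Gng13 neurons are other neurons with at least 2 UMIs of Gng13. Isl1 neurons are other neurons with at least 2 UMIs of Isl1 and fewer than 2 of Gng13. Sums were tested with edgeR 4.0.16 (R 4.3.3; TMM scaling, filterByExpr), quasi-likelihood, with the library as a block; both classes come from the same cell suspension, which pairs them. The main comparison has 4 sums and 1 residual degree of freedom, and the fit over 4 classes 8 sums and 3. In the main comparison edgeR added 5.695 prior degrees of freedom, which are shared across genes. The script was tested on simulated data. DESeq2 1.42.0, other scalings, thresholds and thinning to 5000 UMIs per cell were alternatives. Doublets were neither called nor removed here, so a cell with markers of 2 kinds may be a pair of cells. Free RNA was judged from cells without Stmn2, of which 6 and 14 at E14.5 held at least 2 UMIs of Neurod6. A split of the Neurod6-positive cells by Eomes was not tested, because 7 cells of replicate 1 held the gene and 10 were required. Some genes are not reported here.

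The cells and gene lists were chosen with earlier results of these data known. Genes were named by rule: the 12 largest changes per direction (8 in the other comparisons) among calls with an average log2 CPM of at least 5, the same direction in both libraries and no overlap, plus up to 4 genes of each list with the smallest p; any further gene was named after its values had been seen. Neurod6 and Stmn2 were left out of every list and test. Figures were drawn with matplotlib 3.10.9.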

Additional observations from a re-analysis of the deposited data

Results flagged for a closer look

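The same rule was applied to the E12.5 libraries, which no comparison above uses. It found 28 of 648 kept cells in replicate 1 (4.32%) and 37 of 684 in replicate 2 (5.41%), although the libraries hold no cell with 2 or more UMIs of Tbr1 and 1 or more of Stmn2. Tbr1, Fezf2 and Eomes had 0 UMIs in these cells; for Tbr1 this allows a share of cells with a UMI of up to 10.7% and 8.11%. Isl1 or Gata3 was found in 13 and 16 of them. Of the 15 and 21 cells with none of the 4 marker genes, 11 and 17 held Hoxb3. Neurod6 had a median of 3 UMIs per cell in both libraries, against 15.5 and 12 at E14.5. The ages were not compared by a test.

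The E12.5 cells that passed the rule all held Xist and no Y-linked UMI, while 97.7% and 93.4% of those at E14.5 held a Y-linked UMI, so age and sex of the libraries cannot be told apart.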

How the results depend on the processing

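Leaving out 1 library leaves no residual degrees of freedom, so no count of calls could be given for it. The number of genes higher and lower in Neurod6-positive cells fell from 2286 and 2524 to 1232 and 1132 with DESeq2 and to 1208 and 1269 with cells thinned to 5000 UMIs. Choosing cells by Tbr1 in place of Neurod6 gave 1688 and 1708 calls, of which 1489 and 1377 were shared with the calls above. Without the replicate block the calls numbered 2425 and 2692 (2503 and 3033 against Gng13 neurons, 1047 and 1141 against Isl1 neurons). Without the 4 and 5 cells that held markers of both kinds, an alternative chosen after seeing the data, they numbered 2236 and 2492.

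When cells were chosen by Tbr1, 7 ranked or listed genes other than Egfp changed sign: Barhl1 (-3.95), Epha5 (-0.50), Lhx1 (4.80), Plxnd1 (0.58), Shox2 (-3.52), Syn2 (-0.53) and Trp73 (3.81). Egfp then became -1.46 (edgeR adjusted p = 0.0242); with under 5% mitochondrial UMIs it was 1.05 (edgeR adjusted p = 0.0180), and single libraries ranged from -0.28 to 1.31. The cause was not tested. Over the named genes of the main comparison, 1038 values from refitted alternatives kept direction and call, 41 lost the call and 6 gained it. Values from single libraries have no test, and 131 of them moved by more than 1 SE of the main value. Without replicate 1, 61 moved and 38 did not. Without replicate 2, 70 moved and 29 did not.

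The share of cells that passed was 7.33% and 9.31% with 1 Neurod6 UMI and 4.27% and 5.97% with 4. In replicate 2 it was 8.87% with under 5% mitochondrial UMIs and 5.31% by Tbr1. The Egfp share in replicate 2 differed from that of the other neurons by 12.3 percentage points, and by 5.40 after thinning. Genes under about 1 CPM in the Neurod6-positive sum of replicate 1 rest on 3 or fewer UMIs.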

Other observations

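Tbr1 also marked a group of neurons that the Neurod6 rule does not take in. With at least 2 UMIs of Tbr1 and 1 of Stmn2, 89 and 162 cells were found, of which 47 and 125 were Neurod6-positive. The 42 and 37 cells outside had a median of 16311 and 15964 UMIs and at most 0 and 1 UMI of Neurod6. Trp73, the marker of Cajal-Retzius cells, had a UMI in 40 of 42 (95.2%) and 31 of 37 (83.8%) of them, and stood at 235 and 247 CPM. In replicate 1 that is at least 198-fold the level of the Neurod6-positive cells, which had 0 UMIs. Reln, the secreted guide of cortical layering, stood at 1255 and 1056 CPM, and Lhx1, a LIM factor, at 189 and 205.

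The forebrain genes of the Neurod6-positive cells with Tbr1 or Fezf2 were found in part of these cells only. Emx1 had a UMI in 20 of 42 and 19 of 37 cells, whereas Fezf2 had one in 4 and 8. Neurod2 was found in 4 and 11. Egfp was found in 0 of 42 and 1 of 37. The group was defined after its values had been seen, so no test is given.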
